A study of Rattus norvegicus with 2 samples.

Results

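Peaks that the deposited annotation placed in the promoter class (annotation text starting "promoter-TSS") were described by their side of the transcription start site (TSS). They numbered 2807 of 28706 peaks (9.78%, 95% Clopper-Pearson interval 9.44 to 10.1%), all from 1 chromatin immunoprecipitation sequencing library. Of these, 2240 had the centre upstream of the assigned TSS and 567 had it downstream, 1 of them exactly at the TSS. The library came from the heart muscle of male Wistar rats in which the abdominal aorta had been narrowed. In this pressure-overload model, a 1 cm stretch of aorta above the renal arteries is tied together with a 0.7 mm wire. The labels call it Model with the number 3 and list an input library of the same model, for which no values were analysed here. They give the antibody by supplier and catalogue number, so its target, histone H3 lactylated at lysine 18 (H3K18la), was taken from the series title. No unoperated or stimulated animals were among the samples, and how many animals gave chromatin was not stated. With 1 library there is no replicate error and no test between conditions, and the intervals given cover counting error only.

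Histone lactylation is the attachment of a lactyl group, derived from the glycolytic product lactate, to a lysine of a histone tail. H3K18la has been described at promoters and enhancers of active genes, as has acetylation of the same lysine. At an active promoter, a stretch of open DNA lies just upstream of the TSS and is flanked by nucleosomes whose tails carry such marks. A mark called on 1 flank, on both flanks or across the start therefore gives peaks that differ in their position.

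The promoters of the strongest peaks of named genes on each side, and of the strongest peaks among heart muscle and translation genes, are shown to make these starts concrete. Each RefSeq sequence (GRCr8) runs from 250 bases before to 50 bases after a listed start, on the strand of the gene. Only genes with 1 listed start on the chromosome of the peak were taken. The peaks themselves are in another build, rn6, so the sequences mark the start and not the peak. Capitals mark matches, on either strand, to 7 motifs. These were CCAAT (bound by NF-Y), GGGCGG (SP factors), TATAAA (the TATA box), TGACGTC (CREB and ATF factors), CACGTG (the E-box), ACTTCCG (ETS factors) and AGAACA (a half-site of steroid receptors). Matches may overlap each other, and adjoining matches form 1 run of capitals. Upstream peaks stood at Ppp1r15a (chr1:105139547-105139846, minus strand), Irf2bpl (chr6:112262215-112262514, minus), Cltc (chr10:72070642-72070941, minus), Myl3 (chr8:119616844-119617143, plus) and Eef1a1 (chr8:88225020-88225319, minus). Downstream peaks stood at Rhobtb1 (chr20:19402008-19402307, minus), Rftn1 (chr9:18302128-18302427, plus) and Atp5f1c (chr17:73333435-73333734, plus). Rhobtb1 had promoter-class peaks at separate rn6 starts, with centres 32232.5 bp apart. Its listed start may therefore not be that of the strongest peak. Wbp1l, Sgk1 and Myo1c had several listed starts, Rpl9 lay on another chromosome in RefSeq than its peak, and Actb and Fth1 are named only.
Ppp1r15a: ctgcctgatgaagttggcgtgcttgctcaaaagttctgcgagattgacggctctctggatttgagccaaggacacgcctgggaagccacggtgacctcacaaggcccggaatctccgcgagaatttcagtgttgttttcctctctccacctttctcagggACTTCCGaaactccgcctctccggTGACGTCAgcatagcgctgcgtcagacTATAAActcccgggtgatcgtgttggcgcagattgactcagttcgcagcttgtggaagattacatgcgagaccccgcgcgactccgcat
Irf2bpl: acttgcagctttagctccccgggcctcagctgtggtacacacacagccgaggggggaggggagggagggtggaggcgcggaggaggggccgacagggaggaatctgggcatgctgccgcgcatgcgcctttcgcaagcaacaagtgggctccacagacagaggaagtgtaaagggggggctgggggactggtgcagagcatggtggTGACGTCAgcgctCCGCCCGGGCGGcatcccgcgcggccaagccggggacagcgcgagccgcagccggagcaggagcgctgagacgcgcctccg
Cltc: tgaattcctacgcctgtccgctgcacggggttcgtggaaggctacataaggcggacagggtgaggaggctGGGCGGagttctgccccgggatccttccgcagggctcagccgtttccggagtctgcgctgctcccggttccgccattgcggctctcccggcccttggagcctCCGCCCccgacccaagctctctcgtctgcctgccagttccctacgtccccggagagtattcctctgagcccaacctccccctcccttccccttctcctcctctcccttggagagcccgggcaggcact
Rhobtb1: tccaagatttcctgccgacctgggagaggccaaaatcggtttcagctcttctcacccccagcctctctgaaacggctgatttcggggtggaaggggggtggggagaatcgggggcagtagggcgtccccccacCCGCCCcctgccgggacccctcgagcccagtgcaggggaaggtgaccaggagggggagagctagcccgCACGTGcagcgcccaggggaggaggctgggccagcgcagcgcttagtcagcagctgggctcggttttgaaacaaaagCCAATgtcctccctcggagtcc
Rftn1: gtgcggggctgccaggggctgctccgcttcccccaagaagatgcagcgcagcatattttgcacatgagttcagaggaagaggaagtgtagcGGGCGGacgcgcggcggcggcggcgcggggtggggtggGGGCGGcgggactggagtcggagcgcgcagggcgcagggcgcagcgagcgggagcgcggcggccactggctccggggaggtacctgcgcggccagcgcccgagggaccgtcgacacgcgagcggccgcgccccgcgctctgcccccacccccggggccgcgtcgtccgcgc
Atp5f1c: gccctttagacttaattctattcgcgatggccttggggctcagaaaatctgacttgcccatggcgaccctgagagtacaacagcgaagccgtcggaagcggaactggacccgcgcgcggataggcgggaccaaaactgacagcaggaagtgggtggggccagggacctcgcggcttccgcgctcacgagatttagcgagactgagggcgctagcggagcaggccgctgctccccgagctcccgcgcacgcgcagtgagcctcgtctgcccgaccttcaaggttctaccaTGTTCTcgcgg
Myl3: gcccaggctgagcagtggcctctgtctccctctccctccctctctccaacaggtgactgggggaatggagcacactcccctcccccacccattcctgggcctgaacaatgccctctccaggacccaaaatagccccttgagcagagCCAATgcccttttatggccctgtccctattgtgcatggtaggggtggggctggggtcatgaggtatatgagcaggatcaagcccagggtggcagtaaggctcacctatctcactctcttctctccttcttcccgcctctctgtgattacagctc
Eef1a1: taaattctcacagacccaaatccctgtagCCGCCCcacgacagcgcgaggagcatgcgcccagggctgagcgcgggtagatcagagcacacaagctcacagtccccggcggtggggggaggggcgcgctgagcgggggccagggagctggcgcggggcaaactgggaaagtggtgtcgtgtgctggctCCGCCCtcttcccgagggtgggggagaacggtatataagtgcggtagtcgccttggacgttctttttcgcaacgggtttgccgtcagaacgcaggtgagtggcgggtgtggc
TGACGTC was found in Ppp1r15a and Irf2bpl, on both strands at overlapping places. GGGCGG was found in Irf2bpl, Cltc, Rhobtb1, Rftn1 and Eef1a1, and TATAAA in Ppp1r15a. Myl3 had 1 CpG dinucleotide in the window, against 23 in Ppp1r15a and 45 in Rftn1.

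The promoter class held mostly upstream peaks, but this follows from the way the class is drawn. Upstream peaks made up 79.8% of the class (78.3 to 81.3%). In the file, each peak whose centre was less than 1000 bp before, or at most 100 bp after, its nearest TSS was in the class. The 259 class members centred more than 100 bp downstream of the nearest TSS (9.23%) owed their class to another transcript, since in 0 of 259 was the transcript of the class that of the nearest start. Transcript and nearest start also differed in 265 of 2240 upstream peaks (11.8%) and in 41 of 308 downstream peaks within 100 bp (13.3%).

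In a window of equal reach, the sides were close to even. Within 100 bp of the TSS, 309 peaks were centred upstream and 308 downstream or at the TSS (50.1% upstream, 46.1 to 54.1%). When placed by the summit instead of the centre, 148 of 236 peaks within 100 bp were upstream (62.7%, 56.2 to 68.9%). This count is limited to peaks whose strand follows from the file, of which 161 of 317 (50.8%) were upstream by centre. The summit count also holds promoter-class peaks alone, and the class is bounded by the centre. Of 429 peaks centred 101 to 200 bp downstream, 54 were in the class, against all 232 at 101 to 200 bp upstream. By summit, the window therefore does not reach equally to both sides. Over 1000 bp to both sides, with peaks of all classes counted, 2240 of 5569 were upstream (40.2%, 38.9 to 41.5%). Of the 3328 peaks centred 1 to 1000 bp downstream, the promoter class held 566 (17.0%), and of the 3021 centred 101 to 1000 bp downstream it held 259 (8.57%).

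The upstream peaks stood in 2 clusters. In bins of 100 bp, their number was 106 at 900 to 1000 bp from the TSS and 295 at 500 to 600 bp. It was 215 at 300 to 400 bp and 309 in the last 100 bp before the TSS. The first 100 bp downstream held 308, and the fullest bin of all, 300 to 400 bp downstream, held 603 peaks, of which 70 were in the promoter class. Upstream peaks thus formed a group about 500 bp before the start and another that ran on over the start into the gene. Just inside the upstream edge of the class (901 to 1000 bp), 106 peaks had a median fold enrichment of 4.09 and a median width of 369 bp. Just outside it (1001 to 1100 bp), 87 peaks had 4.07 and 390 bp.

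**Figure D1:**
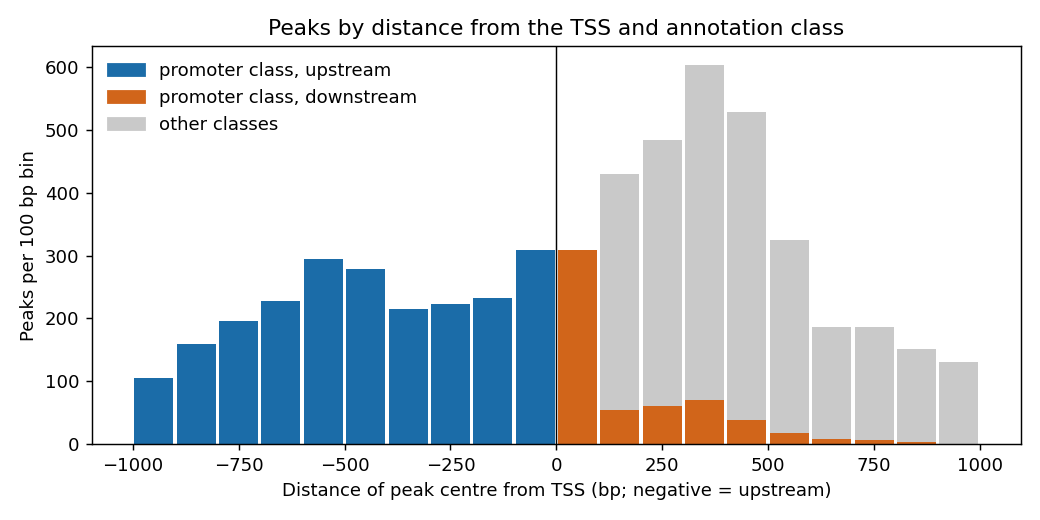
Number of peaks (y axis) in 100 bp bins of the distance between peak centre and assigned TSS (x axis, bp), with the promoter class in blue (upstream) and orange (downstream) and other classes in grey. Upstream bins were filled by the promoter class alone, with high bins of 295 and 309 peaks, while most peaks beyond 100 bp downstream, including most of the 603 at 300 to 400 bp, were of other classes.

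The coverage of the TSS by whole peaks showed the cluster about 500 bp upstream, and a second rise only with both sides of the class counted. The number of promoter-class peaks covering a position was highest at 510 bp upstream (1254 peaks). It was 1067 at 260 bp upstream, 1153 at 120 bp upstream, 1067 at the TSS and 838 at 100 bp downstream. With all classes, the coverage was 1340 peaks at 450 bp upstream and 1199 at 270 bp upstream. From there it rose without a second upstream maximum, to 1782 at the TSS and 2524 at 320 bp downstream, its maximum. Most peaks centred beyond 100 bp downstream are outside the class, so its coverage is cut by the boundary already before the start. At 120 bp upstream, 1153 of the 1499 covering peaks of all classes were in the class, 923 upstream and 230 downstream members. Upstream members alone covered 510 bp upstream with 1218 peaks, 220 bp with 957, 180 bp with 962 and the TSS with 675. Their coverage thus had no clear second maximum.

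**Figure D2:**
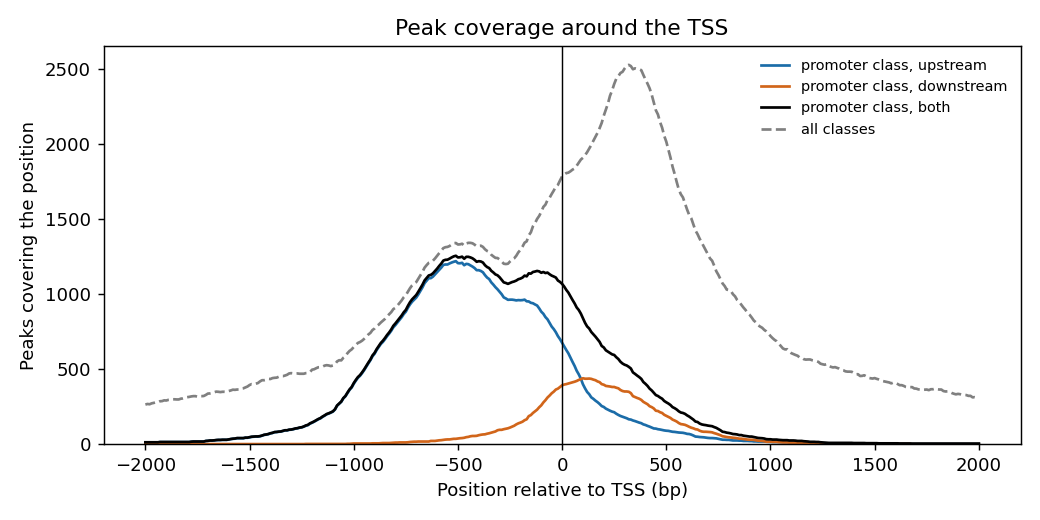
Number of peaks covering each position (y axis) within 2000 bp of the assigned TSS (x axis, bp), for upstream members (blue), downstream members (orange), the whole promoter class (black) and all classes (grey, dashed). The black curve has a maximum of 1254 peaks 510 bp upstream and a second, lower rise of 1153 peaks at 120 bp upstream, and the dashed curve reaches 2524 peaks 320 bp downstream.

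Peaks on the 2 sides had similar medians of strength and width. Fold enrichment, which here is the authors' value over the peak caller's local background, had a median of 4.09 upstream (quartiles 3.46 and 4.79) and of 4.09 downstream (3.43 and 4.91). The values are coarse, with 662 distinct values in the class and 30 peaks at the median itself. The median −log10 q was 4.33 on both sides. Strong peaks of at least 6-fold made up 158 upstream peaks (7.05%) and 44 downstream peaks (7.76%). Width had a median of 380.5 bp upstream (95% order-statistic interval 365 to 398) and 415 bp downstream (387 to 444). Peaks of at least 1000 bp numbered 216 upstream (9.64%) and 61 downstream (10.8%), and those of at least 2000 bp 40 and 7.

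Among downstream members, those near the start had the larger median width, with intervals that overlap. The 308 within 100 bp had a median width of 450 bp (403 to 500) and a median fold enrichment of 4.18. The 259 beyond 100 bp had 387 bp (357 to 423) and 4.02-fold. The rest of the downstream region was near the first of these, with 423 bp and 4.19-fold for 1976 intron peaks and 447 bp and 4.16-fold for 632 exon peaks centred 1 to 1000 bp downstream. Upstream, width had no single trend with distance. Its median was 410 bp at 751 to 999 bp, 345.5 bp at 501 to 750 bp, 389 bp at 251 to 500 bp, 445 bp at 101 to 250 bp and 346 bp at 1 to 100 bp. The class as a whole had a median of 388 bp, against 374 bp in the 25872 peaks of other classes with a distance.

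Fewer than 4 in 10 class members lay across the start itself. The TSS fell within 1067 of 2807 peaks (38.0%, 36.2 to 39.8%), and 658 (23.4%) reached at least 100 bp to both sides of it. Upstream members covered it in 675 cases (30.1%, 28.2 to 32.1%) and downstream members in 392 (69.1%, 65.2 to 72.9%). The difference between the sides goes with distance. The TSS was covered by 2.47% of peaks centred 751 to 999 bp upstream, by 3.56% at 501 to 750 bp and by 18.5% at 251 to 500 bp. It was covered by 65.0% at 101 to 250 bp, and by all 309 within 100 bp, where even a peak of the smallest width, 200 bp, reaches the start. The peaks about 500 bp upstream were therefore mostly separate from the start.

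Summits leaned little to either side of the peak centre. The strand of a gene was read from the file wherever at least 2 peaks at different distances fixed 1 start, which gave 1536 members (54.7%). In 806 of them (52.5%, 49.9 to 55.0%) the summit lay on the gene side of the centre, with a median offset of 4.75 bp (quartiles -60.0 and 76.5). The share was 697 of 1327 (52.5%) among upstream members and 109 of 209 (52.2%) among downstream members. In these peaks, 1301 summits (84.7%) and 1327 centres (86.4%) were upstream of the TSS. There were 76 peaks with the centre upstream and the summit downstream, and 50 with the reverse. Members with a readable strand have a further peak, at any distance, assigned to the same start and are not a random part of the class.

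Most genes had a single promoter-class peak. The 2791 named peaks carried 2561 gene names, of which 2365 had 1 peak, 178 had 2, 14 had 3 and 4 had more. Names with at least 2 numbered 196 (7.65%, 6.65 to 8.75%), and in 117 of them the peaks shared 1 nearest start. Peaks on both sides stood at 82 names (3.20%), upstream peaks alone at 2004 and downstream peaks alone at 475. Names with more than 3 peaks were U6 (12), U1 (8), U2 (4) and Plec (4). The first 3 are spliceosomal small nuclear RNAs, whose many gene copies share a name, and Plec encodes plectin, a cytoskeletal linker with several alternative starts.

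Upstream peaks often had a neighbour inside the gene. A peak of another class centred 1 to 1000 bp downstream under the same name was present at 798 of 2561 names (31.2%, 29.4 to 33.0%). The share was 744 of 2004 names with upstream peaks alone (37.1%, 35.0 to 39.3%), 39 of 475 with downstream peaks alone (8.21%, 5.90 to 11.1%) and 15 of 82 with both. A downstream peak within 100 bp takes up the place where such a neighbour would lie, so these shares are tied to the peaks' positions. Among RefSeq protein-coding genes, 735 of 2286 with a promoter-class peak had a peak of another class within 1000 bp. Without a promoter-class peak, 1668 of 20868 did. The neighbour was matched by name, so it may lie at an alternative start. Where 2 promoter-class peaks shared a nearest start, their centres were a median of 613 bp apart (quartiles 494 and 753, minimum 372), and 61 of 129 such pairs (47.3%) were 400 to 600 bp apart. With all classes within 1000 bp, the median over 857 pairs was 825 bp.

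Rows of 3 separate peaks stood around 1 start at single genes, where the class window keeps them close together. Foxk2, a forkhead transcription factor, had centres at -820, -408 and 86 bp, with 4.09-fold, 5.26-fold and 5.56-fold enrichment. Arl5b, a small GTPase, had them at -973, -401 and 99 bp. Ell, an elongation factor of RNA polymerase II, had them at -931, -407 and -17 bp. Zfand2b, a zinc finger protein linked to the proteasome, had them at -955, -508 and 36 bp. None of these 12 peaks was wider than 524 bp. The genes other than Arl5b were chosen after their values were seen, for having 3 peaks at 1 start. Plec (4 peaks at 4 nearest starts), Il1r1, Rara and Acot7 (3 peaks at 2 nearest starts each) had theirs spread over alternative starts.

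Names with both an upstream and a downstream peak could also join distant starts. The widest-spaced pairs were those of Bag5, a co-chaperone (93299.5 bp between centres), Rhobtb1 (32232.5 bp), the focal adhesion gene Lims1 (21769 bp), and the retinoic acid receptor genes Rarg (10810.5 bp) and Rara (9800 bp). In each pair the 2 peaks lay at separate starts that carry 1 name, so they are not flanks of the same start.

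Upstream, the strongest peak of a named gene belonged to Ppp1r15a, a stress-inducible subunit that directs protein phosphatase 1 to the initiation factor eIF2. It lay at chr1:101514297-101515118 (rn6) with 10.7-fold enrichment, and its edges were 571 bp before and 251 bp after the start. Wbp1l, which encodes a WW domain-binding protein, had 10.3-fold in a peak of 5177 bp whose centre lay 977 bp upstream and which also covered the start. Sgk1, a serum- and glucocorticoid-regulated kinase, had 10.3-fold in a peak that ended 61 bp before the start, with weaker intron peaks of 2.95-fold and 4.11-fold centred 371 and 939 bp downstream. Irf2bpl and Irf2bp2, related transcriptional regulators named for binding interferon regulatory factor 2, had 9.36-fold and 8.19-fold. Cltc, the clathrin heavy chain, had 9.10-fold, and S1pr1, a sphingosine 1-phosphate receptor prominent in endothelium, had 8.17-fold. Slfn2, of the Schlafen family, had 8.21-fold. Narrow peaks were also among the strongest, at Ncln (8.73-fold, 303 bp), an endoplasmic reticulum membrane protein, and at Cpeb4 (8.63-fold, 377 bp), a binder of mRNA polyadenylation elements. Of these 10 peaks, 7 covered the TSS, while those of Sgk1, Ncln and Cpeb4 did not.

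The 10 strongest downstream peaks of named genes all covered the TSS. Rhobtb1 had 9.54-fold in a peak of 2186 bp that ran from 1005 bp upstream to 1181 bp downstream (chr20:20711948-20714133, rn6). Actb, cytoplasmic β-actin, had 9.37-fold with the centre 204 bp downstream, and a separate upstream peak of 3.62-fold centred at -780 bp. Fth1, the ferritin heavy chain, had the same layout, with 8.64-fold at 91 bp and 3.94-fold at -790 bp. Rftn1, a lipid raft protein, had 8.93-fold and Myo1c, an unconventional myosin, 8.18-fold, both in peaks that reached about equally far to each side (916 and 962 bp for Rftn1, 1036.5 and 1080.5 bp for Myo1c). The other 5 were Atp5f1c of the mitochondrial ATP synthase (8.10-fold), the cytokine gene Tnfsf13 (7.80-fold), the RNA-binding protein Hnrnpab (7.50-fold), the ring finger protein Rnf214 (7.45-fold) and the clock gene Per3 (7.40-fold). At Actb, Atp5f1c, Rnf214 and Per3, the transcript that gave the class was not that of the nearest start.

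The widest members with a gene symbol reached far to both sides of the start. The upstream-centred peak of Zmynd8, a reader of histone acetylation, covered 8959 bp, from 4619.5 bp upstream to 4339.5 bp downstream, with 7.54-fold enrichment. After Wbp1l and Irf2bp2 (4596 bp) came Sik1, a salt-inducible kinase (3666 bp), and Psma6, a proteasome subunit (3373 bp). Gene models without a symbol held wide peaks too, at AABR07036331.1 (4837 bp, centred upstream), AABR07012592.1 (6021 bp, centred downstream) and AABR07073038.2 (2502 bp, centred downstream). The widest downstream-centred peaks of named genes were shorter, at Zc3h4 (2493 bp), the semaphorin gene Sema4c (2231 bp), Rhobtb1, Myo1c and Rbpms (2071 bp), an RNA-binding protein. For a peak this wide the side of the centre says little, since all 10 of those with a symbol cover the start.

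**Figure D3:**
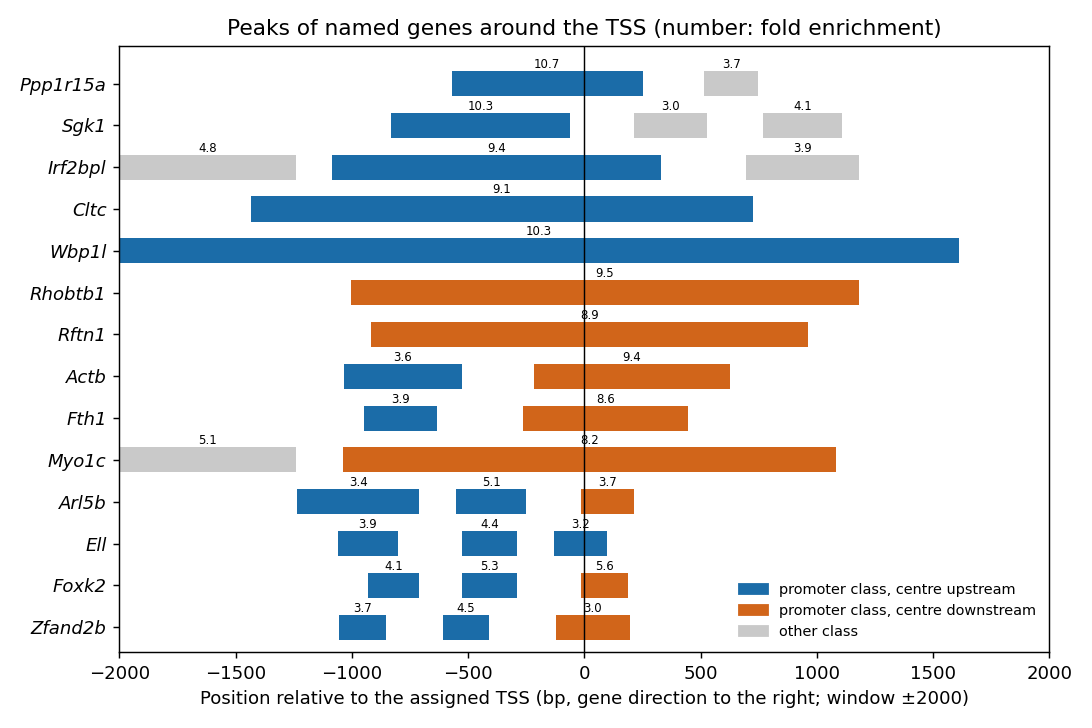
Called peaks of 14 named genes (one per line) along the gene's own direction within 2000 bp of the assigned TSS (x axis, bp), blue for promoter-class peaks centred upstream, orange for those centred downstream and grey for other classes, with each peak's fold enrichment above it. The strongest downstream peaks (Rhobtb1 to Myo1c) and most of the strongest upstream peaks cross the start, the peak of Sgk1 stops 61 bp before it, and Arl5b, Ell, Foxk2 and Zfand2b have 3 separate narrow peaks each.

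Gene lists were chosen with earlier results of these data known, so their shares describe and do not test. They were compared with all protein-coding genes of the RefSeq table, of which 2286 of 23154 (9.87%) had a promoter-class peak. Of these 2286, 81.5% had an upstream one, 40.3% had one that covered the TSS, and the median of the highest fold enrichment per gene was 4.11. Immediate early and stress-induced genes had a promoter-class peak at 22 of 40 (55.0%, 38.5 to 70.7%), with a median of 4.82-fold. In all 22 the peak was centred upstream and in 0 downstream, while upstream peaks stood at 8.04% of all genes and downstream ones at 2.15%. The peak covered the TSS in 5 of the 22, and 12 of the 22 (against 735 of all 2286, 32.2%) had a peak of another class 1 to 1000 bp downstream. A downstream peak of another class alone stood at 7 more of the 40 genes.

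Among these inducible genes, Junb, a subunit of the AP-1 transcription factor, had 8.07-fold at -650 bp after Ppp1r15a and Sgk1. Dusp6, a phosphatase of MAP kinases, had 8.06-fold at -803 bp, and Ddit3, which encodes the stress factor CHOP, 7.54-fold at -751 bp. Nr4a1, an orphan nuclear receptor, had 6.08-fold at -971 bp. The 7 genes with a downstream peak alone included Zfp36, a destabiliser of mRNAs (9.85-fold, intron class, 317 bp downstream), and Fos, another AP-1 subunit (4.59-fold, exon class, 292 bp downstream). They are thus missed by the promoter class though their peaks are close to the start. There was no peak under the names of Atf3, Egr1, Egr2, Egr3, Hspa5 or Mcl1.

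Genes of RNA processing and translation differed among themselves. Splicing factors had a promoter-class peak at 19 of 74 (25.7%, 16.2 to 37.2%), 14 with an upstream and 6 with a downstream one. They were led by the RNA-binding proteins Hnrnpab (7.50-fold, 72 bp downstream) and Hnrnpk (7.22-fold, 480 bp upstream) and by Srsf7, a serine- and arginine-rich splicing factor (5.48-fold, 255 bp downstream). Translation initiation and elongation factors had one at 15 of 74 (20.3%, 11.8 to 31.2%), upstream in 14. Eef1a1, which delivers aminoacyl-tRNA to the ribosome, had 6.29-fold at -797 bp, the scaffold factor Eif4g1 5.92-fold at -251 bp and Eif4e3, of the cap-binding family, 5.26-fold at -438 bp. Cytosolic ribosomal proteins, matched by symbol pattern, had 11 of 217 symbols (5.07%, 2.56 to 8.89%). Whether each of these symbols is a gene of the ribosome itself was not checked, so the share is one of symbols. The strongest, named Rpl9, lay on chromosome 1 in the peak file and on another chromosome in RefSeq. It was followed by Rpl13a (4.32-fold) and Rpl32 (4.30-fold), both centred downstream. Aminoacyl-tRNA synthetases had 0 of 20, with an upper limit of 16.8%.

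Chromatin and transcription genes, apart from homeobox cluster genes, had intervals that hold the 9.87% of all protein-coding genes. Histone modifiers and remodellers had a promoter-class peak at 19 of 123 (15.4%, 9.56 to 23.1%), 16 of them upstream, with a median of 4.96-fold. The deacetylase Hdac7 had 6.90-fold at -840 bp, the methyltransferase Setd1a 6.76-fold at -417 bp and the X-linked demethylase Kdm6a 6.25-fold at -526 bp. RNA polymerase II and general factors had 8 of 63 (12.7%), led by Gtf2a1 of TFIIA (5.62-fold) and Gtf2h1 of TFIIH (5.14-fold). Mediator subunits had 3 of 30, which were Med14 (7.78-fold), Med17 (3.94-fold) and Med23 (3.93-fold). Zinc finger proteins of the Zfp series had 30 of 376 (7.98%), and their strongest, Zfp24 (6.23-fold) and Zfp516 (5.91-fold), were centred 89 and 54 bp downstream. Core and linker histone genes had 2 of 47 (4.26%), the linker histone gene H1f2 (4.37-fold) and the core histone gene H2ac21 (4.26-fold). Homeobox cluster genes had 0 of 39, which allows up to 9.03%, below the share of all genes.

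Of the other families, solute carriers had 50 of 380 (13.2%, 9.93 to 17.0%), led by the amino acid transporter Slc38a2 (7.53-fold at -361 bp), the magnesium transporter Slc41a1 (7.26-fold) and the phosphate transporter Slc20a1 (7.20-fold). Complex I subunits of the respiratory chain had 8 of 47 (17.0%, 7.65 to 30.8%), with Ndufa7 (4.93-fold), the complex I-like gene Ndufa10l1 (4.76-fold) and Ndufb2 (4.14-fold) on top. Ubiquitin-conjugating enzymes had 6 of 43 (14.0%), with Ube2j1 at 6.80-fold, Ube2d3 at 5.91-fold and Ube2e1 at 5.45-fold. Mitochondrial import and inner membrane translocases had 3 of 28 (10.7%), Tomm6 (4.22-fold), Timm21 (3.43-fold) and Timm9 (2.74-fold). Among families typical of other tissues, olfactory receptors had 0 of 1277, which allows up to 0.288%. Keratins had 2 of 55 (3.64%, 0.443 to 12.5%) and cytochrome P450 enzymes 5 of 87 (5.75%, 1.89 to 12.9%). Both intervals hold the 9.87% of all protein-coding genes.

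**Figure D4:**
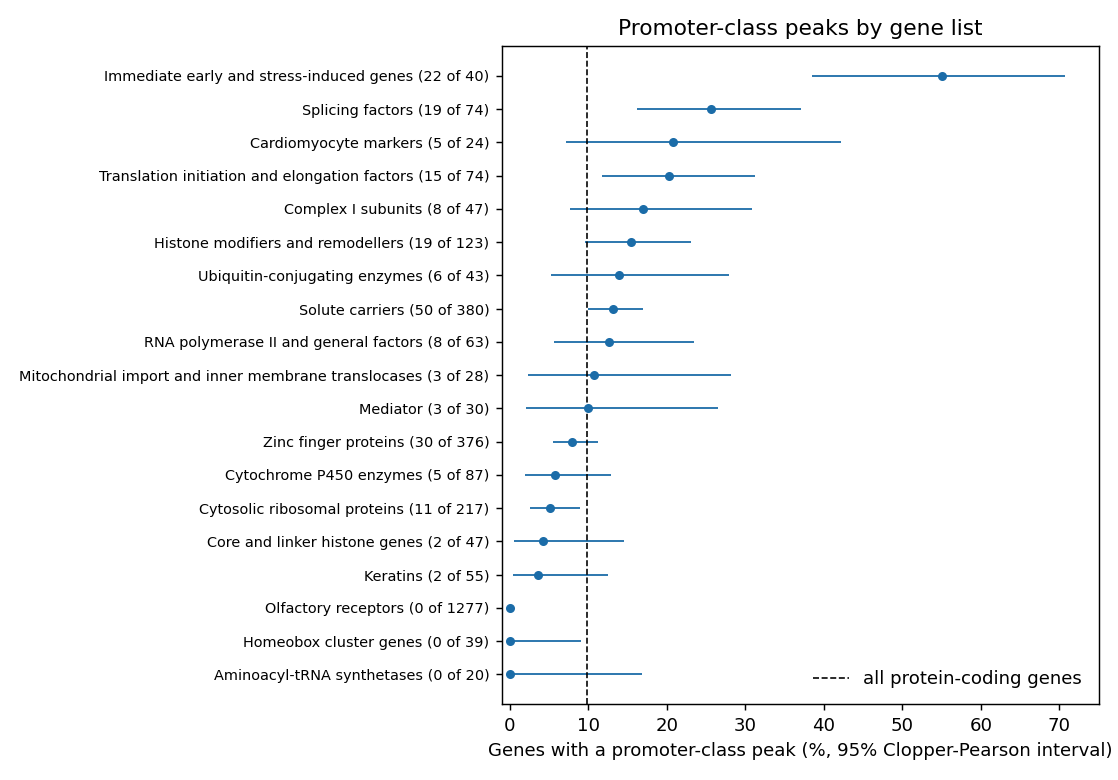
Share of genes with a promoter-class peak (x axis, percent, with 95% Clopper-Pearson intervals) for each list of at least 20 genes, with the number of genes beside its name, against all protein-coding genes (dashed line, 9.87%). Immediate early and stress-induced genes (55.0%) stand above the other lists, and olfactory receptors, homeobox cluster genes and aminoacyl-tRNA synthetases are at 0. The lists were chosen with earlier results of these data known.

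The tissue label was checked against cell type markers. Cardiomyocyte markers had a promoter-class peak at 5 of 24 (20.8%, 7.13 to 42.2%), an interval that holds the 9.87% of all protein-coding genes. Each of these peaks was upstream and none lay over the TSS. With −log10 q of at least 5, 0 of the 24 had one, and with fold enrichment of at least 4, 2 did. Myl3, the ventricular essential light chain of myosin, had 4.74-fold in a peak of 226 bp centred at -251 bp. Myh7, the β-myosin heavy chain, had 4.11-fold at -768 bp, and Myl2, the ventricular regulatory light chain, 3.74-fold at -452 bp. Tnnt2, cardiac troponin T, had 3.41-fold at -801 bp and a stronger intron peak of 5.05-fold at 329 bp downstream. Atp2a2, the calcium pump of the sarcoplasmic reticulum, had 2.62-fold at -469 bp and an intron peak of 3.61-fold at 357 bp downstream. With peaks of every class within 1000 bp, 12 of the 24 had one (17.1% of all protein-coding genes), among them Actc1 (5.25-fold, exon class), Tnni3 (4.94-fold) and Pln (4.85-fold). No peak was listed under Hand2, Myh6, Nppa, Nppb, Ryr2, Tbx5, Tnnc1 or Ttn.

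Markers of other cells in the heart were uneven. Endothelial markers had a promoter-class peak at 4 of 10 (40.0%, 12.2 to 73.8%), the transcription factors Sox17 (6.99-fold), Erg (5.38-fold) and Sox18 (3.86-fold) and the receptor Tie1 (5.35-fold), all upstream. With peaks of every class within 1000 bp, 7 of the 10 had one, among them the receptor Kdr (5.92-fold, intron class). Smooth muscle and pericyte markers had 1 of 8 (Cspg4, 4.09-fold), and 2 of 8 with every class. Fibroblast and immune markers had 0 of 8 each, and adipocyte and hepatocyte markers 0 of 4 each. Neuron markers had 1 of 4 (Gad1, 2.95-fold) and skeletal muscle markers 1 of 4 (Casq1, 4.03-fold). In these last 6 lists, peaks of other classes within 1000 bp added no gene. With 4 to 24 genes in each, the intervals of these lists are wide. The share of each cell type in the tissue was not measured.

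Genes with a promoter-class peak had starts rich in CpG dinucleotides. The CpG ratio, observed over expected from the C and G content of the 300-base RefSeq window, had a median of 0.806 (0.794 to 0.817) in 1884 genes with a promoter-class peak, against 0.502 (0.492 to 0.514) in 17121 without one. A ratio of at least 0.6 was found in 76.8% of genes with a peak and in 43.2% of those without. The median was 0.798 for genes with upstream peaks alone, 0.824 (0.800 to 0.856) for those with downstream peaks alone and 0.901 for those with both. Genes with a peak of another class within 1000 bp had 0.778, and those with no peak there had 0.459. The share of genes with a promoter-class peak was 1.84% below a ratio of 0.2, 4.74% from 0.2 to 0.4, 7.54% from 0.4 to 0.6, 13.2% from 0.6 to 0.8, 17.4% from 0.8 to 1 and 21.6% above. Sequence windows were found for 82.4% of the genes with a peak and for 82.0% of those without, and for genes with several starts the first listed one was used.

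**Figure D5:**
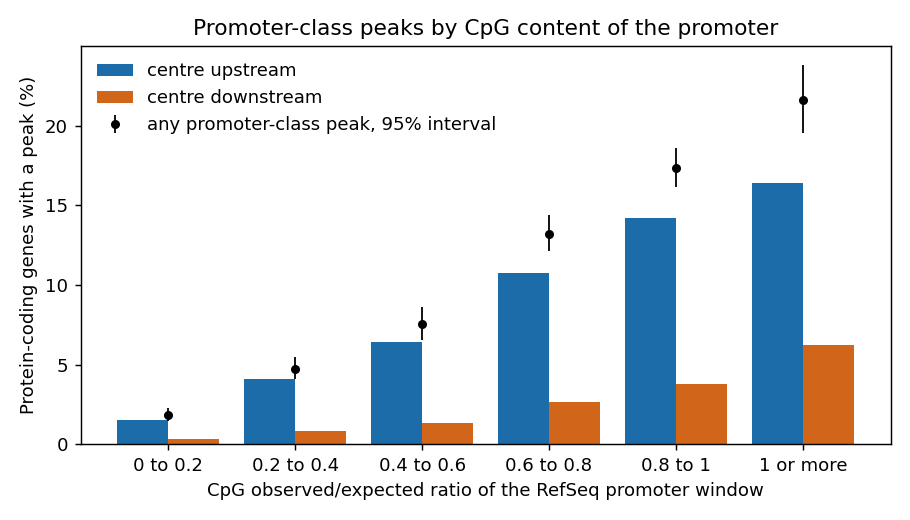
Share of protein-coding genes with a promoter-class peak (y axis, percent) in bins of the CpG observed over expected ratio of the RefSeq promoter window (x axis), as bars for peaks centred upstream (blue) and downstream (orange) and as points with 95% Clopper-Pearson intervals for either. The points go up from 1.84% in the lowest bin to 21.6% in the highest, with more upstream than downstream in every bin.

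The motif content of the same windows went with CpG content. GGGCGG stood in 68.6% of windows of genes with a promoter-class peak, in 40.3% of those without and in 43.1% of all 19005. TATAAA stood in 6.37% of windows with a peak, 13.8% without and 13.1% of all. TGACGTC stood in 6.95% with a peak, against 3.59% without and 3.93% of all, and ACTTCCG in 13.7% with a peak, against 7.73% without and 8.32% of all. AGAACA stood in 10.4% with a peak, against 18.5% without and 17.7% of all. For CACGTG the shares were 9.39% with a peak, 7.03% without and 7.27% of all, and for CCAAT 35.9%, 38.7% and 38.4%. Among windows with a CpG ratio of at least 0.6 the differences were smaller, and that of CACGTG turned round (10.2% with a peak and 11.2% without). There, GGGCGG stood in 77.3% with a peak and 70.4% without, TATAAA in 4.98% and 5.30%, TGACGTC in 8.51% (7.12 to 10.1%) and 5.86% (5.33 to 6.41%), and ACTTCCG in 16.9% and 14.8%. AGAACA stood in 8.09% with a peak and 10.4% without, and CCAAT in 35.4% and 37.2%. Between the sides, ACTTCCG stood in 12.7% of windows with upstream peaks alone (11.1 to 14.6%) and in 16.9% with downstream peaks alone (13.1 to 21.3%), intervals that overlap.

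Downstream class members were often at starts shared by 2 genes. In the RefSeq table, a head-to-head neighbour, whose start lies within 1000 bp on the other strand and points away, was present for 130 of 349 genes with downstream peaks alone (37.2%, 32.2 to 42.6%). It was present for 67 of 1475 with upstream peaks alone (4.54%, 3.54 to 5.73%), against 7.22% of all 19005 genes. The excess came from the downstream peaks more than 100 bp from the nearest start. Among genes with 1 promoter-class peak, 105 of 161 (65.2%, 57.3 to 72.5%) had such a neighbour where the peak was beyond 100 bp, and 20 of 183 (10.9%, 6.80 to 16.4%) where it was nearer. Upstream, the share was 15 of 184 (8.15%) at 1 to 100 bp and 3 of 210 (1.43%) at 751 to 999 bp. Both ends follow in part from the annotation. A downstream peak beyond 100 bp is in the class only when another transcript's window reaches it, and an upstream peak between divergent starts is named for the nearer one. Of 689 head-to-head pairs, both genes had a promoter-class peak in 21 (3.05%) and 1 gene had it in 163 (23.7%). Of all protein-coding genes taken singly, 9.87% had one. Each peak carries 1 name, so a peak shared by both starts counts for 1 gene only.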

How the data were processed

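Peaks came from the deposited narrowPeak list and its annotation. The tools listed in the submitters' processing notes, with no version or order, were HOMER, MACS2, deepTools, SAMtools, Bowtie2, Trim Galore and FastQC, and the build was rn6. Fold enrichment (a ratio), −log10 p and q, and the score are the authors' deposited values per peak, used to describe, rank or filter within this list. A path in the annotation's header, per the file headers, names a call at q 0.05. The distance from the peak centre to the nearest TSS is the authors' deposited value too. Library totals, and so depth, are unknown, and absence of a peak means no call at this threshold or under that name.

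Both tables were joined by peak name in Python 3.11.15 with pandas 2.3.3, numpy 2.4.6 and scipy 1.17.1, and plotted with matplotlib 3.10.9. Names of 2489 members (88.7%) matched a symbol or older symbol of the RefSeq table (GRCr8), 2483 of these on the same chromosome. Shares have Clopper-Pearson intervals and medians order-statistic intervals, both at 95%. Strand inference, intervals and the motif search were tested on simulated data. Alternatives were minimum −log10 q of 5 or fold of 4, matched names alone, position by summit and other windows. Named genes were the 10 strongest and 5 widest of each side, the 5 with most peaks, the 5 widest-spaced pairs and the 3 strongest of each list. Printed promoters were further limited to genes with 1 listed start on the chromosome of the peak, after the table was seen. The members and lists were chosen with earlier results of these data known.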

Additional observations from a re-analysis of the deposited data

Results flagged for a closer look

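The peak list held 27 peaks for which the annotation gave no class, distance or gene, on 19 sequences. They had a median fold enrichment of 4.51 and reached 8.74-fold, and they enter the total of 28706 peaks but no count by class, side or gene. Their place relative to a TSS was not analysed here.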

How the results depend on the processing

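Of 50 recomputed values, 22 stayed within the interval of the reported value (for the share of genes, within 1.5 times it), and 28 did not. Within 100 bp of the TSS the upstream share went from 50.1% as reported to 47.4% (42.0 to 53.0%) with fold enrichment of at least 4. With −log10 q of at least 5 it was 45.5% (39.3 to 51.8%). An even split lies within each interval, the reported one included. With −log10 q of at least 5, the median fold enrichment was 5.03 upstream and 5.07 downstream, the median width 559 bp and 609 bp, the share over the TSS 46.1%, names with several peaks 3.20%, names with a downstream neighbour 17.0%, genes with a promoter-class peak 4.23% and the CpG ratio difference 0.270 (reported: 0.304). With fold enrichment of at least 4, these were 4.77 upstream and 4.77 downstream for fold, 471 bp and 510 bp for width, 42.2% over the TSS, 4.68%, 20.2%, 5.37% and 0.276. Both filters keep stronger peaks, which raises fold by construction. By summit, the upstream share was 84.7% and within 100 bp 62.7%, both among class members, which are bounded by the centre. By centre in the same strand-resolved peaks (added after seeing the data), the upstream share was 86.4%. Without centres beyond 100 bp downstream, it was 87.9% and the downstream median width 450 bp. Counted by nearest start, 4.63% had several peaks. A neighbour within 2000 bp stood at 36.1% of names, a peak of any class within 1000 bp at 17.1% of genes, and 23.4% of members reached 100 bp to both sides. The causes were not tested. For the 27 gene lists, recomputed after seeing the data, the count moved by more than 1.5 times in 16 at −log10 q of at least 5 and in 11 at 4-fold. Immediate early and stress-induced genes then had 16 and 15 of 40, splicing factors 11 and 13 of 74, and cardiomyocyte markers 0 and 2 of 24. No paired analysis was possible because 1 library has values and no groups are compared. Depth limits every absence, since weak peaks near the threshold are lost first.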

Other observations

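The class was mostly made of protein-coding genes, with 2553 peaks (91.0%, 79.6% of them upstream). Long intergenic RNAs had 100 peaks, microRNA genes 40, pseudogenes 33, small nuclear RNAs 32 and small nucleolar RNAs 20. Of the small nuclear RNA peaks, 90.6% were upstream.

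Chromosome X stood apart. Of its 936 protein-coding genes, 33 (3.53%, 2.44 to 4.92%) had a promoter-class peak, against 7.66% on chromosome 19 and 12.6% on chromosome 6, the lowest and highest of the autosomes. It held 234 peaks of all classes, of which 17.5% were in the promoter class, against 9.78% in the whole list. The animals were male and so carried a single X chromosome; its part in the count was not tested. The upstream share of members varied between 71.6% on chromosome 8 and 84.7% on chromosome 6.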
